A study of Mus musculus with 20 samples.

Results

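A set of 39 gene loci peaked at day 3 in 2 cultures of mouse embryonic stem cells (ESCs) that differentiated towards heart muscle. Each had at least 5 FPKM (fragments scaled to transcript length and library depth) at day 3, and (FPKM + 1) at day 3 at least 2 times that at days 0, 6 and 9 of the same culture. Both had to hold in the hairpin A culture and in the scrambled culture. The peak is relative to the other days, and loci such as Actb were well expressed on every day. Of 22102 entries in the table, 21460 spanned 300 bp or more, and 9133 of those had 5 FPKM at day 3 in both cultures. In all 41 loci met the rule, which is 0.449% of the 9133, called the comparison loci here. Of 8 known regulators left out by name, Pou3f1 and Sox3 had met the rule, which left the 39 members. The members were thus chosen by their FPKM values in hairpin A and scrambled, and their course over the days in those cultures is given as a description, with no test.

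The time course held 12 RNA sequencing libraries from 3 cultures of E14 ESCs (strain 129/Ola), each with 1 library at days 0, 3, 6 and 9. The hairpin A and hairpin B cultures carried lentiviral short hairpin RNAs in the pLKO.1 vector against Braveheart, a long noncoding RNA studied in heart development, and the last culture carried a scrambled hairpin. All 3 had been transduced and selected with puromycin, so no culture was free of virus and drug. The labels describe both embryoid body formation and a directed cardiomyocyte protocol with VEGF, Activin A and BMP4 for every library, and the sources used here do not say which one was used. The level of Braveheart was not analysed here. A second set of 8 libraries held 1 fully reprogrammed line (miPS MCV8.1), 4 ESC libraries (2 of E14, strain 129/Ola, and 2 of v6.5, strain 129/svJae x C57BL/6), the partially reprogrammed lines 11.3/MCV6 and 11.5/MCV8, and 1 library of mouse embryonic fibroblasts (MEF). The miPS and partially reprogrammed lines came from those MEFs, which carried Oct4-GFP, by retroviral Oct4, Sox2, c-myc and Klf4. Nothing in the labels says whether replicates came from separate cultures, so the p-values cover the spread among these libraries and no more.

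When ESCs leave self-renewal, the naive pluripotency network is shut down and the cells pass through a formative state that resembles the epiblast before gastrulation. Later, primitive streak and mesoderm genes come on, and heart muscle genes follow. A gene that is on only around that passage is therefore highest in the middle of a differentiation series and low at both ends.

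The time course libraries held between 6820000 and 10960000 mapped reads, as implied by the smallest steps of the FPKM values. Lists of marker genes placed the days. The summed level of 17 naive pluripotency genes was 2116, 547, 330 and 249 FPKM at days 0, 3, 6 and 9 of hairpin A, 2526, 461, 1333 and 1734 FPKM in hairpin B, and 2005, 582, 273 and 240 FPKM in scrambled. The summed level of 26 formative and primed epiblast genes was highest at day 3 in all 3 cultures, with 1659 FPKM in hairpin A, 1831 FPKM in hairpin B and 2028 FPKM in scrambled. At day 9 the 18 cardiomyocyte genes summed to 183 FPKM in hairpin A, 144 FPKM in hairpin B and 672 FPKM in scrambled. At days 6 and 9 the hairpin B culture stood apart from the others, with Nanog at 205 and 256 FPKM and Pou5f1 at 621 and 602 FPKM, against 175 and 682 FPKM at its day 0. The libraries are bulk samples, in which fewer cells of a type and less RNA per cell cannot be told apart.

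The members ran in mean day 3 level over hairpin A and scrambled between 6.14 and 2042 FPKM, with a median of 16.8 FPKM. Of the 39, 6 were above 100 FPKM and 22 below 20 FPKM. The median member had 5.44, 16.6, 5.43 and 2.53 FPKM at days 0, 3, 6 and 9 of hairpin A, and 4.85, 17.0, 4.84 and 2.80 FPKM in scrambled. In 32 members day 9 lay below day 0 in both cultures. The peak score, taken as the log2 of (FPKM + 1) at day 3 over the highest (FPKM + 1) of the other days, was 1.198 for the median member in hairpin A and 1.38 in scrambled. Most members sat close to the threshold: the smaller of the 2 scores was under 1.2 in 25 of 39, and Gdf1 alone reached 2. Just inside the threshold were Bnipl, Galnt3 and 2610528J11Rik, each with a smaller score of 1.01. Just outside were Phox2a at 0.99, Arhgap8 at 0.99 and Kif1a at 0.98. The same rule applied to the other days found 147 loci at day 0, 44 at day 6 and 147 at day 9.

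**Figure D1:**
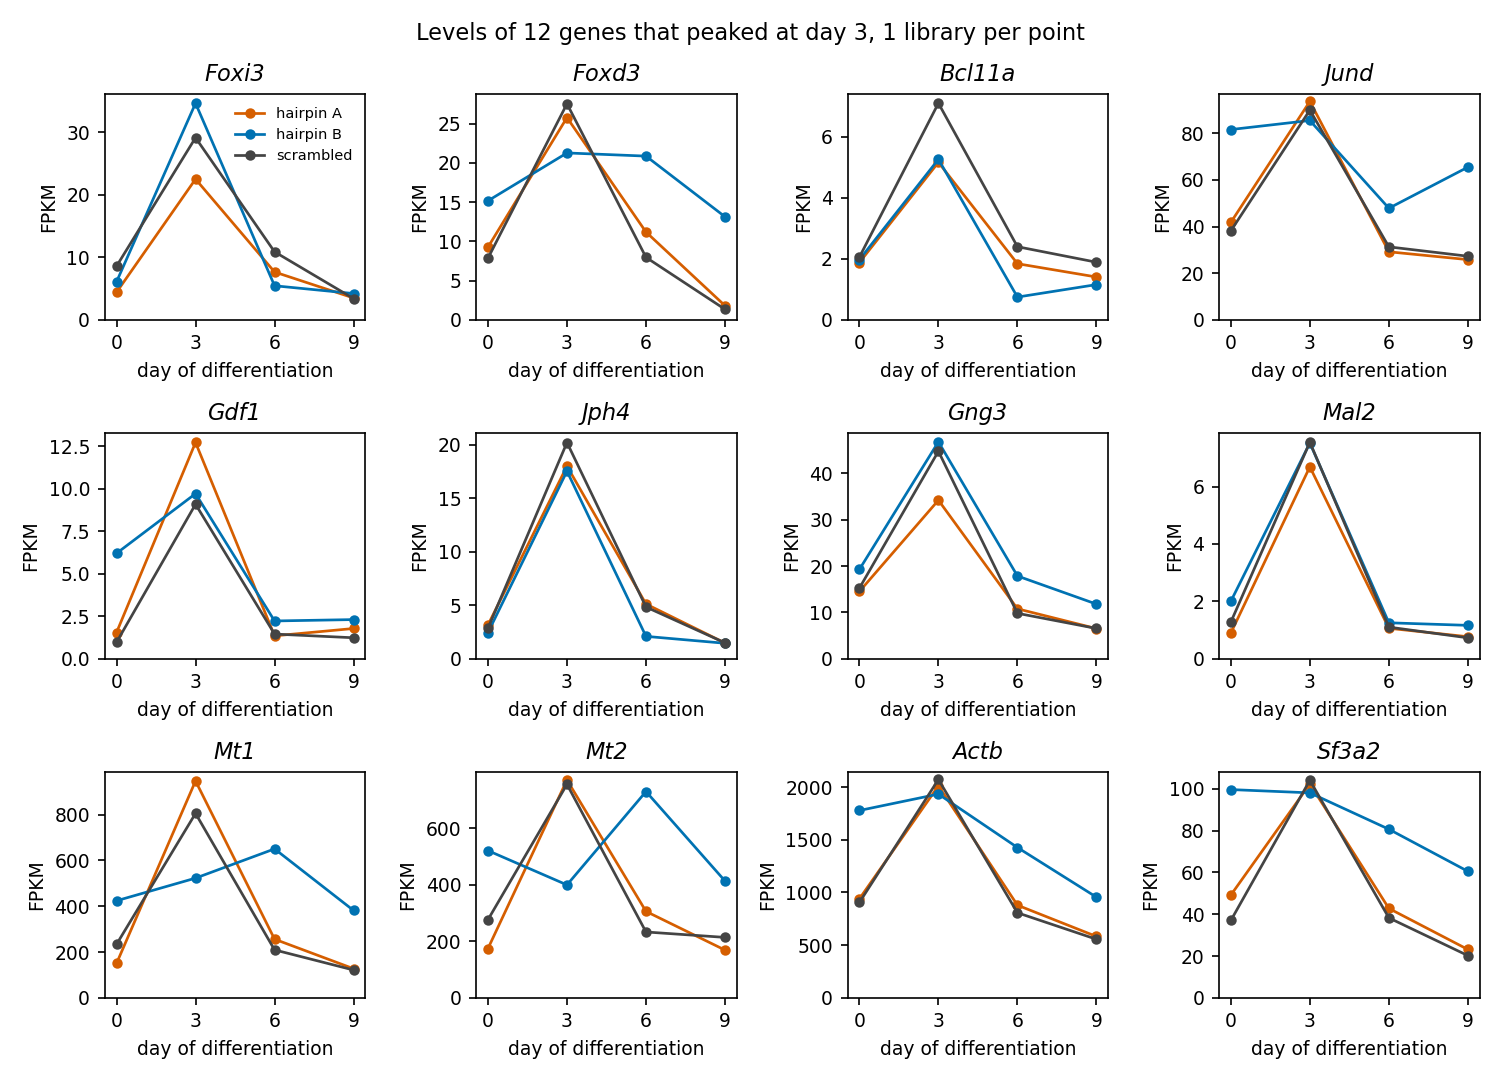
Level in FPKM (vertical axes, linear, from 0) against day of differentiation for 12 members, with 1 library per point and a line for each culture (hairpin A, hairpin B, scrambled). Hairpin A and scrambled peak at day 3 in each panel because the rule required it, and hairpin B peaks at day 3 by over 2-fold for Foxi3, Bcl11a, Jph4, Gng3 and Mal2 but not for Mt1, Mt2, Actb, Sf3a2, Jund, Foxd3 or Gdf1.

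The regulators among the members were Foxi3, Foxd3, Bcl11a and Jund, and Gdf1 is a secreted ligand. Foxi3, a forkhead factor needed for pharyngeal and ectodermal development, lies at 70906599 to 70911059 of chromosome 6 in the mm9 build. It had 4.40, 22.5, 7.65 and 3.49 FPKM at days 0, 3, 6 and 9 of hairpin A, 6.08, 34.6, 5.45 and 4.20 FPKM in hairpin B, and 8.57, 29.1, 10.9 and 3.40 FPKM in scrambled. Day 3 was the highest day in hairpin B, which the rule did not use, as in 33 of 39 members and 30.8% of loci. In hairpin A and scrambled the rule required the day 3 peak of Foxi3. Its relatives Foxi1 and Foxi2 reached at most 0.0440 and 0.163 FPKM in the 12 libraries, so Foxi3 was the one member of that subfamily with a measurable level. Foxd3, a forkhead repressor that maintains the epiblast and specifies neural crest, lies at 99322989 to 99325362 of chromosome 4. It had 9.27, 25.8, 11.2 and 1.80 FPKM in hairpin A, 15.2, 21.3, 20.9 and 13.1 FPKM in hairpin B, and 7.86, 27.6, 7.97 and 1.34 FPKM in scrambled. The hairpin B series was nearly level between days 3 and 6 and ended well above the day 9 values of the other cultures.

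Foxd3 was the single member on the list of 26 formative and primed epiblast genes, of which 25 had 5 FPKM at day 3 in both cultures. Of those 25, 3 met the rule, against 0.449% of the comparison loci, the others being Pou3f1 and Sox3. Pou3f1, a POU-domain factor, had 73.9 FPKM at day 3 of hairpin A, 88.4 FPKM in hairpin B and 81.2 FPKM in scrambled. Sox3, a SOXB1 factor, had 33.3, 35.2 and 27.4 FPKM in the same order. On other lists the number of genes that reached 5 FPKM at day 3, and so could meet the rule, was 12 for naive pluripotency, 6 for primitive streak, 17 for Nodal and TGFb, 22 for FGF, 7 for Wnt, 19 for amino acid and endoplasmic reticulum stress and 17 for glycolysis and hypoxia. None of these met it, nor did any gene of the neural, cardiac, blood, endoderm, fibroblast, epithelial, lipid synthesis or proliferation lists. At a background of 0.449%, lists of this size say nothing by holding none. These lists were drawn up with earlier results of these data known.

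Jund, a subunit of the AP-1 transcription factor, was the single gene of 20 on the immediate early list to meet the rule. It had 41.8, 93.7, 29.2 and 25.8 FPKM in hairpin A, 81.6, 85.5, 47.9 and 65.5 FPKM in hairpin B, and 38.1, 89.9, 31.3 and 27.3 FPKM in scrambled. The day 3 values of the 3 cultures were close, and hairpin B differed by its high day 0 and day 9. Of the related AP-1 genes, Jun lay between 21.7 and 23.9 FPKM at day 3, and Junb was highest at day 0 of hairpin B, at 238 FPKM. Bcl11a, a zinc finger repressor known for silencing fetal globin genes, was the lowest member. It had 1.88, 5.17, 1.84 and 1.41 FPKM in hairpin A, 1.97, 5.27, 0.747 and 1.16 FPKM in hairpin B, and 2.06, 7.11, 2.40 and 1.89 FPKM in scrambled. Hairpin B, which the rule did not use, had the same shape as the others at this low level.

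Gdf1 encodes a TGFb family ligand that forms heterodimers with Nodal, and its smaller score over hairpin A and scrambled, 2.04, was the highest of the 39. In hairpin B its score was 0.57, under the members' median there. After centring for GC content its smaller score was 1.56, and Mal2, Tmem54, Mt1 and Slc23a1 scored above Gdf1. It had 1.55, 12.7, 1.35 and 1.78 FPKM in hairpin A, 6.197, 9.70, 2.22 and 2.31 FPKM in hairpin B, and 0.969, 9.08, 1.46 and 1.24 FPKM in scrambled. Day 0 of hairpin B stood above the other day 0 values, so the step up to day 3 was smaller there. The locus, 72853663 to 72855486 of chromosome 8, overlaps Lass1 (a ceramide synthase gene) and Upf1 in the table. The Gdf1 span lies wholly within that of Lass1, and both end at 72855486. Reads of overlapping loci may not be told apart, and the sources used here give neither strand nor how such reads were shared. Lass1 itself had 4.46 FPKM at day 3 of hairpin A, 4.09 FPKM in hairpin B and 4.48 FPKM in scrambled, and it was not highest at day 3 in hairpin A or scrambled. Camk2n2, Cxcl16, Gng3, Slc23a1 and Tmem54 overlap another locus as well.

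Membrane and signalling proteins formed a further group. Jph4, a junctophilin that ties the endoplasmic reticulum to the plasma membrane in neurons, lies at 55725662 to 55735115 of chromosome 14. It had 3.16, 17.99, 5.12 and 1.48 FPKM in hairpin A, 2.45, 17.5, 2.10 and 1.45 FPKM in hairpin B, and 2.87, 20.2, 4.84 and 1.50 FPKM in scrambled. The day 0, 3 and 9 values were close among the cultures, and hairpin B was the lowest at day 6. Its hairpin B score of 2.42 was the highest of any member. The related Jph1 was also highest at day 3, with 14.8, 15.1 and 11.9 FPKM in hairpin A, hairpin B and scrambled, but did not meet the rule. Mal2, a proteolipid of apical membrane transport, had 0.897, 6.69, 1.06 and 0.770 FPKM in hairpin A, 2.00, 7.52, 1.26 and 1.17 FPKM in hairpin B, and 1.28, 7.54, 1.11 and 0.731 FPKM in scrambled. Its day 3 values lay at over 3 times every other value, though in hairpin A and scrambled the rule required a peak of at least 2 times.

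Gng3, the gamma subunit of a heterotrimeric G protein, had 14.5, 34.2, 10.8 and 6.52 FPKM in hairpin A, 19.3, 46.8, 17.9 and 11.8 FPKM in hairpin B, and 15.2, 44.7, 9.81 and 6.54 FPKM in scrambled. Tmem54 had 2.43, 11.7, 0.868 and 0.911 FPKM in hairpin A, 1.97, 6.36, 2.48 and 1.50 FPKM in hairpin B, and 1.96, 15.2, 3.13 and 1.49 FPKM in scrambled. Tmem59l had 4.14, 10.6, 1.62 and 0.635 FPKM in hairpin A, 2.07, 9.35, 2.04 and 1.33 FPKM in hairpin B, and 2.75, 10.96, 1.92 and 0.628 FPKM in scrambled. For all 3 genes the day 3 value was also the highest in hairpin B, whereas in hairpin A and scrambled the rule required this. Slc23a1, a sodium-dependent transporter of vitamin C, had 1.57, 9.40, 2.58 and 2.41 FPKM in hairpin A, 5.72, 11.6, 5.12 and 4.80 FPKM in hairpin B, and 2.46, 9.41, 1.93 and 1.96 FPKM in scrambled. Here the hairpin B day 3 value was again the highest of its series, but its day 0 stood above those of the other cultures. 2210411K11Rik, whose current symbol is Tmem238, had 5.44, 16.6, 5.03 and 1.24 FPKM in hairpin A, 10.3, 16.3, 6.16 and 4.72 FPKM in hairpin B, and 3.69, 17.0, 3.69 and 1.37 FPKM in scrambled. Arhgap27 had 6.66 FPKM at day 3 of hairpin A, 8.79 FPKM in hairpin B and 9.29 FPKM in scrambled. Other members of this kind were Arhgdig, Coro1a (coronin, an actin-binding protein), Dok2 (a docking protein of tyrosine kinase signalling), Cxcl16 (a chemokine), Mmp25 and Hpn (membrane-bound proteases), C1ql1, Camk2n2 (an inhibitor of CaM kinase II), Prr7, Plac8 and Bspry.

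Enzymes and cell death genes formed another group. Cbr3, a carbonyl reductase, had 42.0, 117, 24.8 and 10.7 FPKM in hairpin A, 65.1, 77.2, 61.5 and 57.1 FPKM in hairpin B, and 36.8, 85.7, 15.5 and 6.601 FPKM in scrambled. Gstt2, a glutathione transferase, had 25.5, 76.0, 33.3 and 12.9 FPKM in hairpin A, 17.99, 43.3, 19.96 and 17.6 FPKM in hairpin B, and 24.4, 62.7, 21.03 and 10.1 FPKM in scrambled. Hairpin B kept a 2-fold peak for Gstt2 and was nearly flat for Cbr3. Isyna1, which makes inositol phosphate from glucose phosphate, had 152 FPKM at day 3 of hairpin A, 102 FPKM in hairpin B and 125 FPKM in scrambled. Galnt3, which starts mucin-type O-glycosylation, had 0.807, 6.94, 2.89 and 2.06 FPKM in hairpin A, 1.80, 7.94, 2.49 and 1.48 FPKM in hairpin B, and 0.957, 7.69, 3.06 and 3.32 FPKM in scrambled. This gene was near the threshold in both cultures that chose it and clearer in hairpin B, where its score was 1.35. Lpcat4 (a lysophospholipid acyltransferase), Ccno (cyclin O, known from multiciliated cells), Bok (a BCL2 family member) and Bnipl completed the group.

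Actb and Sf3a2 are expressed in nearly every cell, and Actb is often used as a constant standard. Actb, cytoplasmic beta-actin, had 939, 2011, 879 and 582 FPKM in hairpin A, 1778, 1933, 1426 and 955 FPKM in hairpin B, and 905, 2072, 807 and 556 FPKM in scrambled. The day 3 values of the 3 cultures lay close together, and the day 0 of hairpin B was close to its own day 3. Gapdh, another standard, changed less. It had 197, 184 and 177 FPKM at day 3 of hairpin A, hairpin B and scrambled, against 167, 165 and 146 FPKM at day 0. Tubb5, a tubulin gene, and Actg1 were highest at day 3 in all 3 cultures, though neither met the rule. Tubb5 had 1289, 1223 and 1267 FPKM at day 3, against 1013, 1035 and 859 FPKM at day 0 of the same cultures. Actg1, which encodes gamma-actin and is closely related to Actb, had 1287, 1408 and 1114 FPKM at day 3, against 877, 1145 and 612 FPKM at day 0 of the same cultures. How any reads that match both genes were shared is not given, so the Actb and Actg1 values are uncertain in that respect. Sf3a2, a subunit of the U2 spliceosome particle, had 49.2, 102, 42.8 and 23.1 FPKM in hairpin A, 99.6, 98.1, 80.7 and 60.5 FPKM in hairpin B, and 37.0, 104, 38.3 and 20.2 FPKM in scrambled.

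Metallothioneins are small cysteine-rich proteins that bind zinc and copper, and their genes are induced through metal response elements, which the zinc-sensing factor MTF1 binds. Mt1, Mt2 and Mt3 were all members, and they lie within 27719 bp of chromosome 8. The RefSeq promoters (build GRCm38.p6, plus strand, 250 bases before to 50 after the start) are shown because the 3 genes lie close together. Their shared day 3 peak in hairpin A and scrambled was required by the rule. In hairpin B Mt1 and Mt2 were highest at day 6 and Mt3 at day 9. Capitals mark TGCACNC or TGCGCNC, the core letters of a metal response element, on either strand, and these letters were chosen after the members were known. The Mt1 window is 94178839 to 94179138 of chromosome 8, that of Mt2 is 94172368 to 94172667, and that of Mt3 is 94152357 to 94152656.
Mt1: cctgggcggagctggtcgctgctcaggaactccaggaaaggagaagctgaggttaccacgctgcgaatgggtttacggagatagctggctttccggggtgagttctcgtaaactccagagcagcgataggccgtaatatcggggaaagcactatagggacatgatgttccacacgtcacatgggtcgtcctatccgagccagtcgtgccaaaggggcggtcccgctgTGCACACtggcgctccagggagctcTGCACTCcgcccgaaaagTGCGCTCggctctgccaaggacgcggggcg
Mt2: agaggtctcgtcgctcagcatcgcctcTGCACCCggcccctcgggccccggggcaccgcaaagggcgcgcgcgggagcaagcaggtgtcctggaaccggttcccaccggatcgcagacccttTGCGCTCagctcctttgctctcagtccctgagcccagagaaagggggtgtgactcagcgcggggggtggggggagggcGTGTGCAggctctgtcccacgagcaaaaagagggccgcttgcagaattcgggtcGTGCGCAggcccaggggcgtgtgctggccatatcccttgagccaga
Mt3: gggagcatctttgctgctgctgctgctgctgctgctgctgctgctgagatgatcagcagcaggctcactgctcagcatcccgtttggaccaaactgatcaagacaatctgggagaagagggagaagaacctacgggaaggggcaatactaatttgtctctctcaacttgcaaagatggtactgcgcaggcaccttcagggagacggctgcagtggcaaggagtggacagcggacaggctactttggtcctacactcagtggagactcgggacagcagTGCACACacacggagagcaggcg
The letters occur 3 times for Mt1, 4 times for Mt2 and 1 time for Mt3. TGCACNC was in 13.3% of 30 member promoters, against 11.9% of 7181 promoters of comparison loci, TGCGCNC in 36.7% against 30.1%, and either of them in 43.3% against 38.3%. At least 3 occurrences, a number set after those of Mt1 were known, were found in 4 member promoters (13.3%; Mt1, Mt2, Prr7 and Sf3a2), against 3.90% of the comparison promoters and 2.00% of all 27025 promoters. A match is a string of letters and not a shown binding site.

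Mt1 had 150, 947, 256 and 127 FPKM at days 0, 3, 6 and 9 of hairpin A, 424, 523, 651 and 382 FPKM in hairpin B, and 234, 806, 209 and 121 FPKM in scrambled. Mt2 had 174, 770, 305 and 169 FPKM in hairpin A, 520, 399, 729 and 413 FPKM in hairpin B, and 276, 754, 233 and 214 FPKM in scrambled. Mt3, the form best known from brain, had 1.81, 10.8, 4.60 and 1.40 FPKM in hairpin A, 8.91, 5.62, 5.31 and 10.1 FPKM in hairpin B, and 2.17, 10.3, 1.71 and 1.08 FPKM in scrambled. None of the 3 was highest at day 3 in hairpin B, where their scores of -0.31, -0.87 and -0.74 were among the 5 lowest of all members. Mtf1 and Slc30a1, a zinc exporter, were the other genes of zinc handling looked at, and they were chosen after they were seen. Mtf1 lay between 3.49 and 5.32 FPKM and Slc30a1 between 6.202 and 9.38 FPKM over the 12 libraries. No list of zinc handling genes was examined. Reads of near-identical metallothionein copies may be split among them.

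Other letters were searched in the 30 member promoters that matched RefSeq, on both strands. CCAAT, the CCAAT box, was in 3 of 30 (10.0%: Bcl11a, Isyna1 and Plac8), against 40.2% of the comparison promoters and 37.9% of all promoters. CACGTG, the E-box of MYC, was in 1 (3.33%), against 11.2% and 7.24%. TGACGTCA, the cyclic AMP response element, was in Foxd3 and Tmem59l (6.67%), against 3.83% and 1.88%. CTTTGT, the SOX and TCF core, was in 5 (16.7%), against 12.7% and 18.7%. ATGCAAAT (the octamer) and AATCACAC (like a FOXH1 site) were in none of the 30 windows, against 1.31% and 0.529% of the comparison promoters. TAATCC, the OTX core, was in 3 (10.0%, against 5.35%), CCCCTCCC in 3 (10.0%, against 15.9%) and TCACACCT, a T-box site, in 1 (3.33%, against 0.655%). The median GC content of the member promoters was 63.2%, against 61.7% for the comparison promoters.

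Hairpin B took no part in the choice of the members, and with 1 library per day it allows no test. In that culture 11 of 39 members met the same 2-fold peak with at least 5 FPKM, against 0.632% of the 9330 loci of 300 bp or more with 5 FPKM at its day 3. These were Bcl11a, Bok, Ccno, Foxi3, Galnt3, Gng3, Gstt2, Jph4, Mal2, Tmem54 and Tmem59l. In 33 of 39 members the day 3 value was the highest of the hairpin B series, against 30.8% of loci. Day by day, (FPKM + 1) at day 3 was at least 2 times that at day 0 in 14 members (background 2.48%), at day 6 in 20 (1.86%) and at day 9 in 28 (4.09%). The median peak score of the members in hairpin B was 0.67, against -0.16 for the comparison loci. The highest scores were those of Jph4 (2.42), Foxi3 (2.33), Tmem59l (1.75), Mal2 (1.50) and Galnt3 (1.35). The lowest were those of Mt2 (-0.87), Mt3 (-0.74), 2610528J11Rik (-0.33), Mt1 (-0.31) and Dok2 (-0.03).

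The day 3 values of the 3 cultures lay within 1.5 times of each other in 26 members and within 2 times in 36, and the widest ratio was 2.97 (Plac8). At day 3 hairpin B was above both other cultures in 7 members (background 31.3% of loci with 5 FPKM at day 3 in all 3 cultures). At day 0 it was above both in 29 members (background 41.3%), at day 6 in 28 (43.3%) and at day 9 in 34 (44.4%). The rule had picked loci that were high at day 3 and low on the other days in hairpin A and scrambled, which favours these directions, and the background loci were not picked so. Nothing is read from these counts. For Dok2 the day 0 values were 3.05 FPKM in hairpin A, 16.7 FPKM in hairpin B and 3.87 FPKM in scrambled. The naive pluripotency sums given above were also higher in hairpin B at days 6 and 9, and their part in these differences was not tested.

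**Figure D2:**
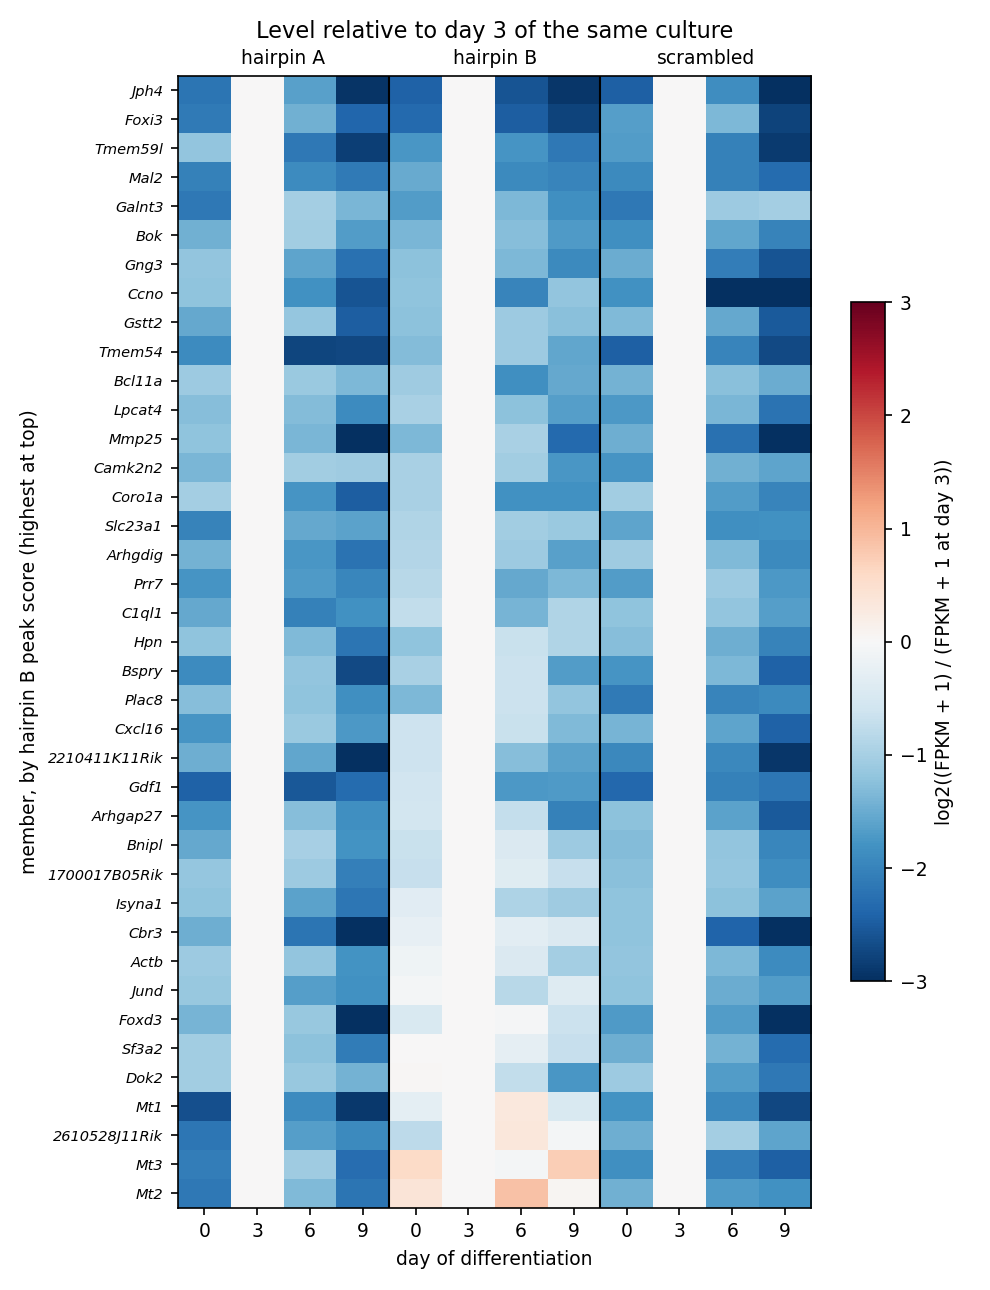
Log2 of (FPKM + 1) relative to day 3 of the same culture (colour; blue is lower than day 3, red higher) for the 39 members (rows, ordered by the hairpin B peak score) in the hairpin A, hairpin B and scrambled libraries (columns, days 0, 3, 6 and 9). Hairpin A and scrambled are blue outside day 3 in every row by the rule, whereas hairpin B fades down the rows, and Mt2, at the bottom with a score of -0.87, is red at day 6.

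The members shared a composition that the rule did not use. Their transcripts had a median GC content of 57.9%, against 50.2% for the 8879 comparison loci with a value. Of the 39, 24 fell in the highest of 5 equal classes of loci by GC content (over 56.1%), and 2 in the lowest class. Loci that peaked at days 0, 6 and 9 by the same rule had medians of 49.0%, 50.0% and 49.0%. The members were also short: 28 of 39 loci spanned under 10000 bp (71.8%), against 27.8% of the comparison loci, and the median transcript was 1795 bases long, against 3046.

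GC content moved with day over all loci. In hairpin A the median log2 difference between day 3 and day 0 was -0.09 in the lowest GC class and 0.31 in the highest. In scrambled it was -0.22 in the lowest class and 0.43 in the highest, whereas in hairpin B it was 0.06 in both. Against day 6, day 3 of hairpin B differed by -0.10 in the lowest class and 0.10 in the highest, and against day 9 by -0.19 and 0.20. At day 0 the median of hairpin B minus scrambled was -0.28 in the lowest class and 0.33 in the highest, while at day 3 it was 0.00 and -0.03. When each library was centred within 20 bins of GC content, an alternative added after the data were seen, 16 of 39 members still met the rule. They were 2210411K11Rik, Actb, Bcl11a, Cxcl16, Galnt3, Gdf1, Gng3, Gstt2, Jph4, Mal2, Mmp25, Mt1, Mt2, Plac8, Slc23a1 and Tmem54, and 8 of them met it in all 3 cultures. Foxi3 fell just under the 2-fold score of 1, with 0.97 in both hairpin A and scrambled, and kept 2.28 in hairpin B. Foxd3, Jund, Sf3a2 and Mt3 fell further, to smaller scores of 0.66, 0.62, 0.61 and 0.60. Centring hardly moved the hairpin B median score, which became 0.69, and 12 members then passed 2-fold there (background 0.675%).

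**Figure D3:**
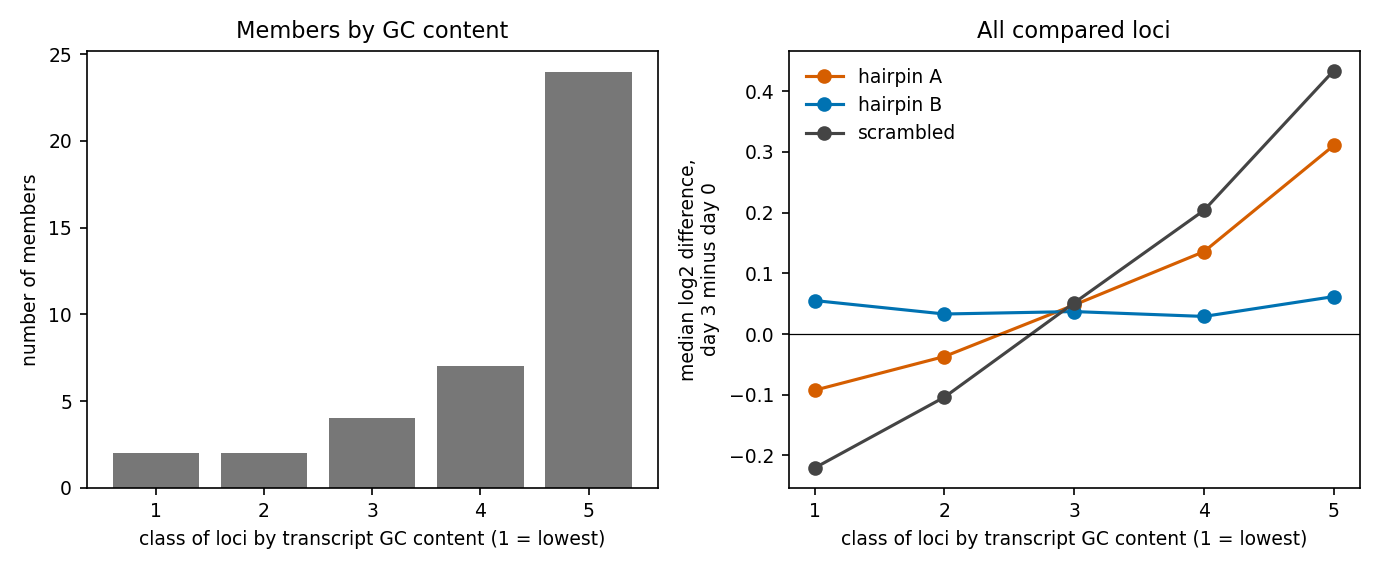
Left, number of the 39 members in each of 5 equal classes of the comparison loci by transcript GC content (bars from 0). Right, median log2 difference of day 3 minus day 0 over all compared loci of each class, for hairpin A, hairpin B and scrambled. The highest class holds 24 members, and the medians climb with GC content in hairpin A (to 0.31) and scrambled (to 0.43) but not in hairpin B (0.06).

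Depletion of Braveheart was compared day by day, by setting the average of the hairpin A and B libraries against scrambled, in 1 limma fit over all 12 libraries on log2(FPKM + 1). Its 4 residual degrees of freedom came from the hairpin pairs, and scrambled, with 1 library a day, was taken to have the same spread. No member passed an adjusted p of 0.05 on any day, when limma called 0.0213%, 0.0284%, 0.0425% and 0.0354% of 14108 loci at days 0, 3, 6 and 9. None had an unadjusted p under 0.05 in limma either. Of all loci 0.468%, 0.262%, 1.05% and 1.41% did at days 0, 3, 6 and 9, so 0 of 39 says little. The median log2 difference of the members was 0.20, -0.08, 0.28 and 0.38 at the 4 days, against 0.01, 0.00, -0.02 and -0.07 over all loci. Above 0 were 32, 10, 28 and 32 of the 39, against 50.8%, 49.9%, 46.1% and 43.0% of all loci. The comparison uses the hairpin A and scrambled values that chose the members, and a scrambled library low at days 0, 6 and 9 and high at day 3 favours these signs, so they are no independent result. For hairpin B alone the medians at days 0, 6 and 9 were 0.60, 0.57 and 0.75, and for hairpin A alone they were 0.11, 0.12 and 0.03. Centring for GC content gave 0.09 at day 0, with 24 members above 0.

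The largest difference of a member was that of Cbr3 at day 9, with 10.7 FPKM in hairpin A and 57.1 FPKM in hairpin B, against 6.601 FPKM in scrambled. In limma this was 1.78 ± 0.96 (SE) on the log2 scale, with an adjusted p of 0.873. Foxd3 at day 9, with 1.80 and 13.1 FPKM in hairpins A and B against 1.34 FPKM in scrambled, differed by 1.43 ± 0.90 (SE; limma, adjusted p 0.873). In both cases hairpin B alone was far from scrambled. The lowest difference was that of Tmem54 at day 3, with 11.7 and 6.36 FPKM in hairpins A and B against 15.2 FPKM in scrambled. It was -0.75 ± 0.50 (SE; limma, adjusted p 1). The spread between the hairpin libraries was as wide as these differences.

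The second set of libraries gave the level of the members in cells that were not differentiating, and the rule did not use it. The rule did require at least 5 FPKM at day 3 of E14 cultures, which favours genes that are expressed in ESCs. The background genes were not picked so. Counts and medians of members higher in ESCs than in MEF or partially reprogrammed lines are therefore favoured by the choice of members. All 39 members were matched and tested with edgeR's quasi-likelihood test on expected counts, adjusted by the Benjamini-Hochberg method over 16773 genes. Library totals ran between 7536503 and 23662593 counts, and the floor of detection was taken as 3 counts per library. Nanog, a marker of pluripotent cells, had 300.1 CPM in miPS, between 210.5 and 285.7 CPM in ESCs, under 1 CPM in the partially reprogrammed lines and 0.431 CPM in MEF. Col1a1, a fibroblast collagen, had 288 CPM in miPS, between 240.3 and 296 CPM in ESCs, 32.8 and 0 CPM in the partially reprogrammed lines and 36605 CPM in MEF. Both ESC lines and miPS were grown on feeder fibroblasts that were removed by pre-plating, whereas the partially reprogrammed lines were grown without feeders. The comparisons share the ESC, partially reprogrammed and MEF libraries. The miPS line and MEF had 1 library each and were taken to have the spread of the others.

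In ESCs against MEF, 12 members were higher (background 13.2% of genes) and 1 was lower (15.4%). Foxi3 had 100, 132, 169 and 341 counts in the ESC libraries (E14 replicates 1 and 2, then v6.5 replicates 1 and 2) and 0 in MEF, so it was at least 33.6-fold higher (adjusted p 0.00299, edgeR). Bnipl had 141, 189, 45 and 69 counts in ESCs and 0 in MEF, which is at least 15.8-fold higher (adjusted p 0.00542, edgeR). 2610528J11Rik had 33, 41, 110 and 75 counts against 0 in MEF, at least 13.4-fold (adjusted p 0.0244, edgeR). These 3 genes had no reads at all in the fibroblast library. Mal2 had 11, 19, 21 and 67 counts against 0 in MEF, at least 5.23-fold (adjusted p 0.0341, edgeR). Bspry, a B-box protein, had 24.1, 22.4, 76.3 and 34.0 CPM (counts scaled to library size) in ESCs and 0.575 CPM in MEF, a log2 difference of 5.93 ± 0.99 (SE; edgeR, adjusted p 0.00927). Bok was the member lower in ESCs, with 9.63, 7.15, 43.4 and 13.4 CPM against 63.5 CPM in MEF, a difference of -2.04 ± 0.58 (SE; edgeR, adjusted p 0.0450). The others higher were Foxd3, Gng3, Gstt2, Hpn, Jph4, Mmp25 and Slc23a1. Without E14 replicate 1 or 2, 5 members were higher each time, against 3.77% and 3.62% of genes, and 0 lower, against 6.12% and 5.94%. Without v6.5 replicate 2, 18 of 38 were higher and 2 lower, against 23.0% and 21.9% of genes, and without v6.5 replicate 1, 15 and 3, against 26.9% and 24.4%.

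In ESCs against the partially reprogrammed lines, 18 members were higher (background 16.1%) and 2 were lower (13.6%). Galnt3 had 77, 83, 61 and 296 counts in ESCs and 0 in both lines, at least 24.4-fold higher (adjusted p 0.00732, edgeR). Tmem54 had 48, 54, 110 and 52 counts and was at least 14.9-fold higher (adjusted p 0.0131), 2610528J11Rik at least 15.0-fold (adjusted p 0.00899) and Tmem59l, with 33, 36, 99 and 85 counts, at least 14.4-fold (adjusted p 0.00732, all edgeR). Ccno had 82, 66, 25 and 35 counts and was at least 8.74-fold higher (adjusted p 0.00704, edgeR). All 5 had 0 counts in both partially reprogrammed libraries. Foxd3 had 232, 151, 124 and 185 counts in ESCs against 1 and 0 in these lines. Lower in ESCs was 2210411K11Rik, with 6.496, 3.46, 21.7 and 7.598 CPM against 58.4 and 31.3 CPM in 11.3/MCV6 and 11.5/MCV8 (-2.40 ± 0.52, SE; edgeR, adjusted p 0.0188). Lpcat4, with 21.02, 14.2, 43.0 and 34.6 CPM against 43.9 and 71.8 CPM, was lower too (-1.15 ± 0.31, SE; edgeR, adjusted p 0.0380). For Lpcat4 the highest ESC value (43.0 CPM, v6.5 replicate 1) lay close to the lower of these lines (43.9 CPM, 11.3/MCV6). Over the repeats under other settings, Lpcat4 stayed past the threshold in 6 and was weaker in 5, against 9 and 2 for 2210411K11Rik. The remaining members higher in ESCs were Bcl11a, Bnipl, Bspry, Cxcl16, Foxi3, Gng3, Gstt2, Hpn, Jph4, Mal2, Mmp25 and Mt3. Members lower numbered 9 of 38 without v6.5 replicate 1 and 4 of 38 without v6.5 replicate 2, when 23.9% and 21.2% of all genes were lower. They numbered 0 without E14 replicate 2 (4.48% of genes), and 1 without E14 replicate 1 (4.96%), without 11.3/MCV6 (5.58%) or without 11.5/MCV8 (6.27%).

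With members below the floor set to it (7 against MEF and 13 against the partially reprogrammed lines), the median log2 difference of the 39 was 1.74 against MEF (4 members at 0) and 1.71 against the partially reprogrammed lines (5 at 0). In the fitted values the medians were 1.67 and 1.60, against 0.19 and 0.05 over all genes tested. The partially reprogrammed lines against MEF gave 2 members higher (background 4.95%), Foxi3 and Arhgap27, and 4 lower (8.87%), Galnt3, Tmem59l, Ccno and Cxcl16. Foxi3 stood there at only 4 and 6 counts in the lines 11.3/MCV6 and 11.5/MCV8, against 0 in MEF. Galnt3 had 0 counts in both lines, against 26 in MEF. Tmem59l and Ccno rested on few reads too, with 0 counts in both lines and 7 each in MEF. These calls did not hold when either E14 library or the line 11.5/MCV8 was left out, and the lower ones did not hold without 11.3/MCV6. Fewer genes were called in all in these repeats, and each left 1 library in a group. The lost calls therefore say little about the members. The median log2 difference of the members was -0.166 with all libraries. It was -0.139 and -0.164 without E14 replicate 1 or 2, -0.0424 without 11.3/MCV6 and -0.279 without 11.5/MCV8.

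The miPS line did not differ from ESCs in any member past the threshold (background 0.0298% of genes, edgeR). DESeq2 called none, against 0.692% of genes higher and 0.352% lower. In edgeR 2 members had an unadjusted p under 0.05, against 7.95% of all genes, so 2 of 39 does not exceed the background. Those 2 were Mmp25, with 2.68 CPM in miPS against 8.21, 5.87, 29.1 and 23.3 CPM in ESCs, and Galnt3, with 1.71 CPM in miPS against 4.55, 3.64, 7.70 and 21.6 CPM. Their log2 differences were -2.34 ± 0.83 and -2.18 ± 0.86 (SE; edgeR, adjusted p 0.570 and 0.629). Mt2 was the member with the highest difference, with 610 CPM in miPS against 176, 150, 321 and 165 CPM in ESCs (1.62 ± 0.69, SE; edgeR, adjusted p 0.645).

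Between the ESC lines, E14 against v6.5, no member passed the threshold (background 0.489% of genes, edgeR), and 3 of 39 were above 0, against 47.2% of all genes. Lower in E14 at an unadjusted p under 0.05 were 19 members, against 12.2% of all genes. DESeq2 called 3 members lower, against 4.70% of genes. In edgeR 2 were lower without v6.5 replicate 1, against 2.48% of genes, and 16 without v6.5 replicate 2, against 12.4%. The median log2 difference of the members was -1.30, against -0.05 over all genes. It was -0.62 without v6.5 replicate 1, -1.64 without v6.5 replicate 2, and -0.86 after centring for GC content. Dok2 had the lowest unadjusted p, with 4.31 and 3.73 CPM in E14 against 82.4 and 20.7 CPM in v6.5 (-3.68 ± 0.69, SE; edgeR, adjusted p 0.0819). Foxi3 had 5.91 and 5.79 CPM in E14 against 21.3 and 24.9 CPM in v6.5 (-1.98 ± 0.39, SE; edgeR, adjusted p 0.0887). Over all genes with at least 5 CPM, v6.5 replicate 1 minus replicate 2 had a median of -1.09 in the lowest of 5 GC classes and 0.83 in the highest. The part of GC content in the difference between the lines was not tested beyond the centred value.

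**Figure D4:**
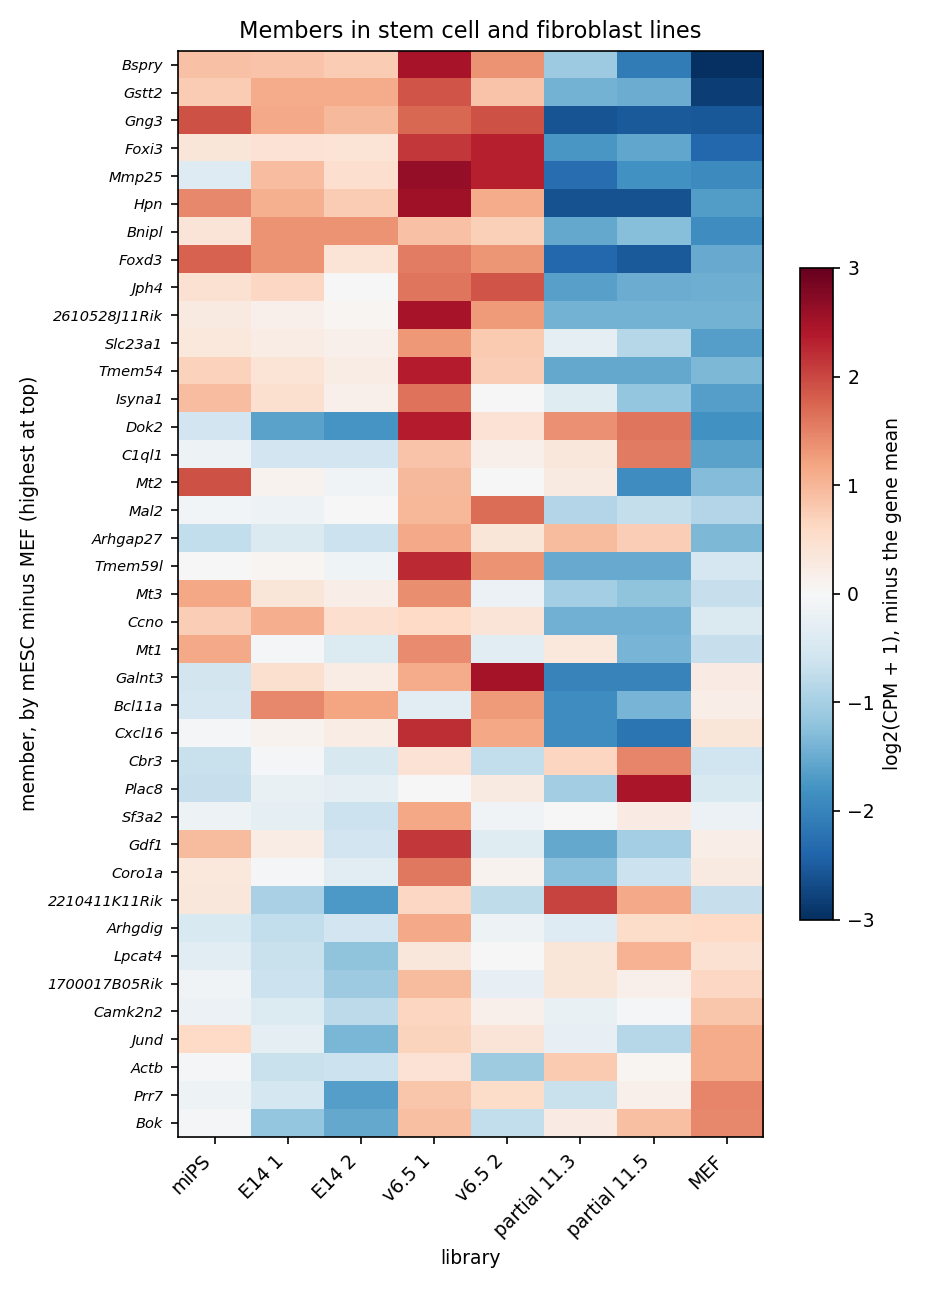
Log2(CPM + 1) minus the mean of the gene (colour) for the 39 members (rows, ordered by ESC minus MEF) in 8 libraries (columns: miPS, E14 and v6.5 ESC replicates, partially reprogrammed lines, MEF). The upper rows, such as Bspry and Foxi3, are low in the partially reprogrammed and MEF libraries, and v6.5 replicate 1 is high in most rows.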

How the data were processed

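Messenger RNA was sequenced from 12 time course libraries and 8 libraries of stem cell and fibroblast lines. Per the submitters' processing notes, the authors made the time course values with TopHat 1.14, Bowtie 0.12.7 and Cufflinks 1.3.0, and the other table with TopHat 1.3 and RSEM, all on mm9. The deposited time course values are FPKM per locus, and every one of the 468 member values carried an OK status. The deposited table of the second set holds expected counts and TPM per gene as the authors' estimates. Expected counts were rounded to whole numbers for testing, and TPM was not tested. The authors' 8 ratio columns and 16 columns of FPKM bounds were not used.

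The members and gene lists were chosen with earlier results of these data known. Members named with values followed a rule (list membership, the highest peaks and levels, nearest to the threshold, extremes in hairpin B, largest folds between lines). Bcl11a and Gng3, the non-members Foxi1, Foxi2, Jph1, Jun, Junb, Lass1, Gapdh, Tubb5, Actg1, Mtf1 and Slc30a1, and single values outside the rule were chosen after they were seen. The 14108 loci that reached 1 FPKM in 2 or more libraries were tested with limma 3.58.1 (R 4.3.3) on log2(FPKM + 1), which understates changes of low genes. The 16773 genes that reached 1 CPM in 2 or more libraries were tested with edgeR 4.0.16 (TMM, quasi-likelihood, 5 groups, 3 residual degrees of freedom). Tests were two-sided, with Benjamini-Hochberg adjustment at 0.05. Transcript GC content came from GRCm38 transcripts matched by symbol. Promoters came from RefSeq. A value of 3 reads on 1 kb was worth between 0.274 and 0.440 FPKM, and floors cover counting error only. Each culture is 1 cell line sampled over the days, so culture pairs its libraries: correlations of their deviations from the day means ran between -0.17 and 0.78, with a median of 0.09. Alternatives covered pseudocount, filters, scaling, DESeq2 1.42.0, blocks and left-out replicates. No sequence of Slc23a1 is given.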

Additional observations from a re-analysis of the deposited data

How the results depend on the processing

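The number of loci meeting the rule was 5 with a 3-fold threshold, 11 when all 3 cultures had to meet it, 18 when scrambled and hairpin B chose, and 17 after centring for GC content. In hairpin B 24 members peaked by 1.5-fold. Depletion calls over all loci at days 0, 3, 6 and 9 were 112, 63, 89 and 184 without a filter on low values, and 0 on each day when loci under 300 bp were left out (limma; 52, 22, 130 and 186 had an unadjusted p under 0.05). With culture as a replicate block they stayed at 3, 4, 6 and 5, and no member was called. Without 1 library they ran between 6 and 10, 4 and 7, 8 and 10, and 14 and 157, the last without hairpin A. No member was called under any of these, and the smallest adjusted p of a member at day 9 was 0.0834.

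Between lines, no named gene reversed, and 122 of 141 repeats stayed on the same side of the threshold. The E14 and v6.5 replicate numbers are shared labels only. With them as a replicate block, members lower in ESCs were 0 against MEF (11.7% of genes) and 1 against partially reprogrammed lines (8.39%). In that setting 1 gene differed between miPS and ESCs. Replicate 1 minus replicate 2 correlated at 0.32 between the lines. Without a filter on low counts, 3 members were lower in ESCs against MEF (10.1% of genes) and 4 against partially reprogrammed lines (9.13%). In E14 against v6.5, 3 were lower (3.41%), and partially reprogrammed lines against MEF gave 5 higher (4.86%) and 7 lower (7.06%). In that setting 222 genes differed for miPS and 1417 for E14 against v6.5. DESeq2 gave 3, 4 and 3 members lower in ESCs against MEF, ESCs against partially reprogrammed lines and E14 against v6.5. The shares of genes lower were 16.6%, 13.8% and 4.70%. It gave 4 members higher in partially reprogrammed lines against MEF (8.13% of genes), and called 175 genes for miPS and 1138 for E14 against v6.5. With DESeq2 size factors in edgeR, 1 member was higher in partially reprogrammed lines against MEF (4.25% of genes). Centring for GC content, chosen after seeing the data, gave 6 members lower in ESCs against partially reprogrammed lines (18.05% of genes). Partially reprogrammed lines against MEF then gave 5 members higher (8.704% of genes), with 3555 genes in all. E14 against v6.5 then gave 252 genes, with 1 member lower (1.025% of genes). The causes of these shifts were not tested.

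Leaving out 1 replicate gave between 1584 and 8453 genes for ESCs against MEF, with 5 to 18 members higher and 0 to 3 lower. The shares of all genes ran between 3.62% and 26.9% higher and between 5.94% and 24.4% lower. For ESCs against partially reprogrammed lines there were between 1952 and 8470 genes, with 13 to 21 members higher and 0 to 9 lower. Those shares ran between 7.29% and 27.5% higher and between 4.48% and 23.9% lower. For miPS it gave between 0 and 306 genes. For partially reprogrammed lines against MEF it gave between 944 and 4837 (0 to 8 higher, 0 to 6 lower), and for E14 against v6.5 between 0 and 4317 (0 to 16 lower). The fewest calls came without an E14 replicate or, for E14 against v6.5, also without a partially reprogrammed library. The most came without a v6.5 replicate. Genes of few reads are limited by depth: members at 0 counts in a library may lie anywhere under 3 counts.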

Other observations

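Of the 39 members, 7 lie on chromosome 8 (17.9%), which held 5.62% of the comparison loci. Mt1, Mt2 and Mt3 lie within 27719 bp there, and Gdf1, Tmem59l, Isyna1 and Jund lie within 370852 bp (72853663 to 73224515 in mm9), among 15 comparison loci whose median transcript GC content was 59.4%. This stretch was noticed after the members were known and was not tested. Chromosomes 4 and 11 held 4 members each (10.3%), with 6.66% and 8.26% of the comparison loci, and chromosome 7 held 3 (7.69%), with 7.45%.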
